A study of Mus musculus with 12 samples.

Results

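The 35 genes described here make up the Fanconi and interstrand crosslink repair pathway, and their RNA was measured in the femoral bone marrow of mice given cyclophosphamide. They were taken by gene symbol from the deposited table of 34745 genes, which held all 35, and every one of them was abundant enough to be tested in each of the 6 comparisons between groups. The 35 fall into 7 roles. These are the core complex (8 genes), the FANCD2 and FANCI pair with its ubiquitin cycle (5), nucleases (6) and translesion synthesis (3). The others are homologous recombination (7), dissolution of joined DNA (3) and checkpoint genes (3).

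Total femoral marrow came from male outbred ICR mice of 18 to 22 g, whose age was not given, with 3 mice in each of 4 groups and 1 library from each mouse. The normal group received saline only. The model group received saline by mouth for 1 week and cyclophosphamide at 80 mg/kg/day by injection into the abdomen from day 5 to day 7. Mice of the QJSB group were given that cyclophosphamide course together with Qi Jing Sheng Bai granule, a Chinese herbal medicine, at 3 g/kg/day by mouth, and mice of the leucogen group that course together with leucogen, a drug given against low white cell counts, at 20 mg/kg/day by mouth. No group received QJSB or leucogen without cyclophosphamide, so each drug is seen only on that background. The deposited columns carry other headings than the group names, and 3 of the 4 headings were assigned by meaning or by elimination: the blank was read as the normal group, the positive control as leucogen and the remaining name as QJSB. The comparisons with normal and every statement that separates QJSB from leucogen rest on that reading.

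Cyclophosphamide is an alkylating agent whose active metabolite joins guanines on opposite strands of DNA, and such a crosslink blocks a replication fork. In the Fanconi pathway FANCM helps to place the core complex at the blocked fork, FANCL within that complex acts with the conjugating enzyme UBE2T to put ubiquitin on FANCD2 and FANCI, nucleases held by SLX4 unhook the crosslink, translesion polymerases copy past the remnant, and the break is mended by homologous recombination. Inherited loss of some of these genes causes Fanconi anaemia, in which the bone marrow fails, and the pathway is used mainly in cells that are replicating their DNA.

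Library totals were 14164054 to 14876552 counts in the normal group, 13279282 to 16922274 in the model group, 16758401 to 18545198 in the QJSB group and 11172547 to 14766064 in the leucogen group. The makeup of the marrow differed widely between groups. Summed erythroid markers fell from 15594 to 19670 CPM (a library's counts scaled to a common total) in normal marrow to 168 to 1784 CPM in model marrow, with 10 of 10 markers called lower, and 6 of 6 mature B cell markers were called lower. A gene was called where its absolute log2 fold change was over 0.585, which is 1.5-fold, with an adjusted p under 0.05 in edgeR's quasi-likelihood test, a rule named the adjusted cutoff here. All 5 promyelocyte markers were called higher, with sums of 740 to 950 CPM in normal and 6591 to 9478 CPM in model marrow. Model 1 and QJSB 1 stood apart from their groups, with late neutrophil sums of 1686 and 2728 CPM against 3827 to 15081 CPM in the other 4 libraries of these groups, and stroma sums of 729 and 877 CPM against 170 to 245 CPM. In bulk marrow, fewer cells of a type and less RNA per cell cannot be told apart, and the part that cell makeup has in any value below was not tested.

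Levels of different genes were compared per length, as FPKM, in which fragments are divided by transcript length and library total. In normal marrow Usp1, the protease that takes ubiquitin off FANCD2, had the highest level of the 35, with 42.4 ± 3.61 FPKM (SD, n = 3). Its partner Wdr48 followed with 32.7 ± 0.28 FPKM, and the 2 ranges did not overlap. Brca1 (17.5 ± 1.85 FPKM) and Rmi1 (16.7 ± 1.14 FPKM) came next and did not differ beyond their spread. Fancl, Fanci, Chek1 and Fancd2 lay close together between 8.66 and 9.07 FPKM, within the spread of Fancl (1.06 FPKM). The lowest levels were those of the nuclease subunit Ercc1, with 0.76 ± 0.03 FPKM, and of the ATR partner Atrip, with 0.66 ± 0.17 FPKM.

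Promoter sequences are shown for some of the members whose RNA was called different between groups, so that a reader can see what lies at their starts. The windows run from 125 bases before to 25 bases after the RefSeq start on GRCm38.p6, read 5′ to 3′ along the gene, and capitals mark the E2F letters (TTTCGCGC, TTTGGCGC, TTTCCCGC or TTTGCCGC) and the CCAAT letters, on either strand.
Rad51c, start 1 (chr11:87404482-87404631, minus strand): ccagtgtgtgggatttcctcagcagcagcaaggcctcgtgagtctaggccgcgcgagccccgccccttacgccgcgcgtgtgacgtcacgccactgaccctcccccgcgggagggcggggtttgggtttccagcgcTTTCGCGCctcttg
Rad51c, start 2 (chr11:87404930-87405079, minus strand): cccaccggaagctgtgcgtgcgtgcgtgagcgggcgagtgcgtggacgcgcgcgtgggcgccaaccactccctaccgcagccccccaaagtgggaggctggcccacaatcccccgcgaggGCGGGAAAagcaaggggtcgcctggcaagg
Chek1 (chr9:36726634-36726783, minus strand): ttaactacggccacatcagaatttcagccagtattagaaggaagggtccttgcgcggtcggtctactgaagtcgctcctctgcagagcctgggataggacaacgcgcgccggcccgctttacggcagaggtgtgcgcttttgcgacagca
Ube2t (chr1:134962440-134962589, plus strand): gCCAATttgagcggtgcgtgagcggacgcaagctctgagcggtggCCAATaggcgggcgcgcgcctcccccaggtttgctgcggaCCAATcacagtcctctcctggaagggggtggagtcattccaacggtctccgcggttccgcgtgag
Palb2 (chr7:122132922-122133071, minus strand): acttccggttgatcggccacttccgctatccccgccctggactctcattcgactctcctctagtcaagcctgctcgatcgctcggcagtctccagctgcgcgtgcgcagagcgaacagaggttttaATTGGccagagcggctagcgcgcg
Atrip (chr9:109074100-109074249, minus strand): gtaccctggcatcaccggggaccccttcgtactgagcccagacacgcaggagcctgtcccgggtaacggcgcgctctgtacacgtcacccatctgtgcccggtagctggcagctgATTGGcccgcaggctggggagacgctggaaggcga
Fancg (chr4:43010277-43010426, minus strand): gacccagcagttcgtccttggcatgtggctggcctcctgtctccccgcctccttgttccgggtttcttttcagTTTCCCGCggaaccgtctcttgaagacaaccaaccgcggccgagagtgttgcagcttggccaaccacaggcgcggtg
Rev1 (chr1:38129642-38129791, minus strand): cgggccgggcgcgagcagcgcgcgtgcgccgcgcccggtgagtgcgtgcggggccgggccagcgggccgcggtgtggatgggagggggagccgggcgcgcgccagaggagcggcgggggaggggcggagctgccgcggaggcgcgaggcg
The E2F letters stand at both Rad51c starts and in the Fancg window, the CCAAT letters in the windows of Ube2t, Palb2 and Atrip, and neither in those of Chek1 and Rev1. RefSeq windows of 300 bases, from 250 before to 50 after the start, were matched for 29 of the 35 members, and Rev3l, Rad51d, Usp1, Fancd2, Xrcc2 and Top3a were not matched. The E2F letters were found in 4 of the 29 (13.8%), against 4.57% of the 10038 tested genes with a window. CCAAT was found in 16 of 29 (55.2%), against 42.9%, the GC box letters GGGCGG in 17 of 29 (58.6%), against 66.3%, and the cell cycle homology letters TTTGAA or TTCGAA in 2 of 29 (6.9%), against 16.6%. Across the members' windows 1 E2F match overlapped a GC box match, as did 1 CCAAT match. A match is a description of letters and not a binding site. The RefSeq starts of Chek1, Palb2, Fancg and Rev1 and start 1 of Rad51c lie inside the annotated span of the gene. Windows of the other called members with a matched start, Fancl, Fan1, Ercc1, Atr and Fancb, are not shown. From 125 bases before to 25 bases after the start, none of these held the E2F or the CCAAT letters.

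Model against normal marrow asks what cyclophosphamide alone did to these genes. Of the 35 members 4 rose (Atrip, Palb2, Top3a and Xrcc2) and 3 fell (Rad51c, Fancl and Chek1) at the adjusted cutoff. These 7 are 20% of the members, while 35.1% of the 14752 genes tested passed the same rule (16.1% higher and 19.0% lower). Within 1.5-fold of normal lay 28 of the 35 members (80%) and 56.1% of all genes tested. The median log2 fold change was 0.09 for the members and 0.02 for all genes, and the extremes among the members were -1.04 (Rad51c) and 0.79 (Atrip). The 3 model libraries lay wholly above the 3 normal libraries for 10 members (28.6%; 26.9% of all genes) and wholly below them for 10 (28.6%; 28.6% of all genes). Without model 1, the library that stood apart, 4 members were higher and 2 lower, and the lost call was Chek1 (log2 fold change -0.56, under the fold limit, by edgeR).

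**Figure D1:**
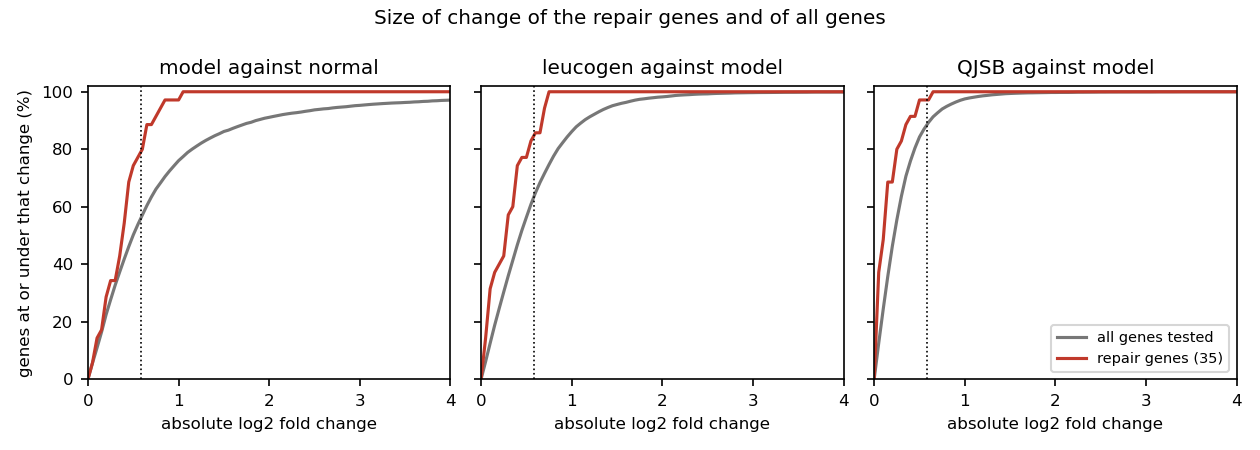
Cumulative share of genes (y axis, percent) at or under each absolute log2 fold change (x axis) for the 35 repair genes (red) and all genes tested (grey) in 3 comparisons, with 1.5-fold dotted. In model against normal 80% of the repair genes and 56.1% of all genes lie within 1.5-fold.

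**Figure D2:**
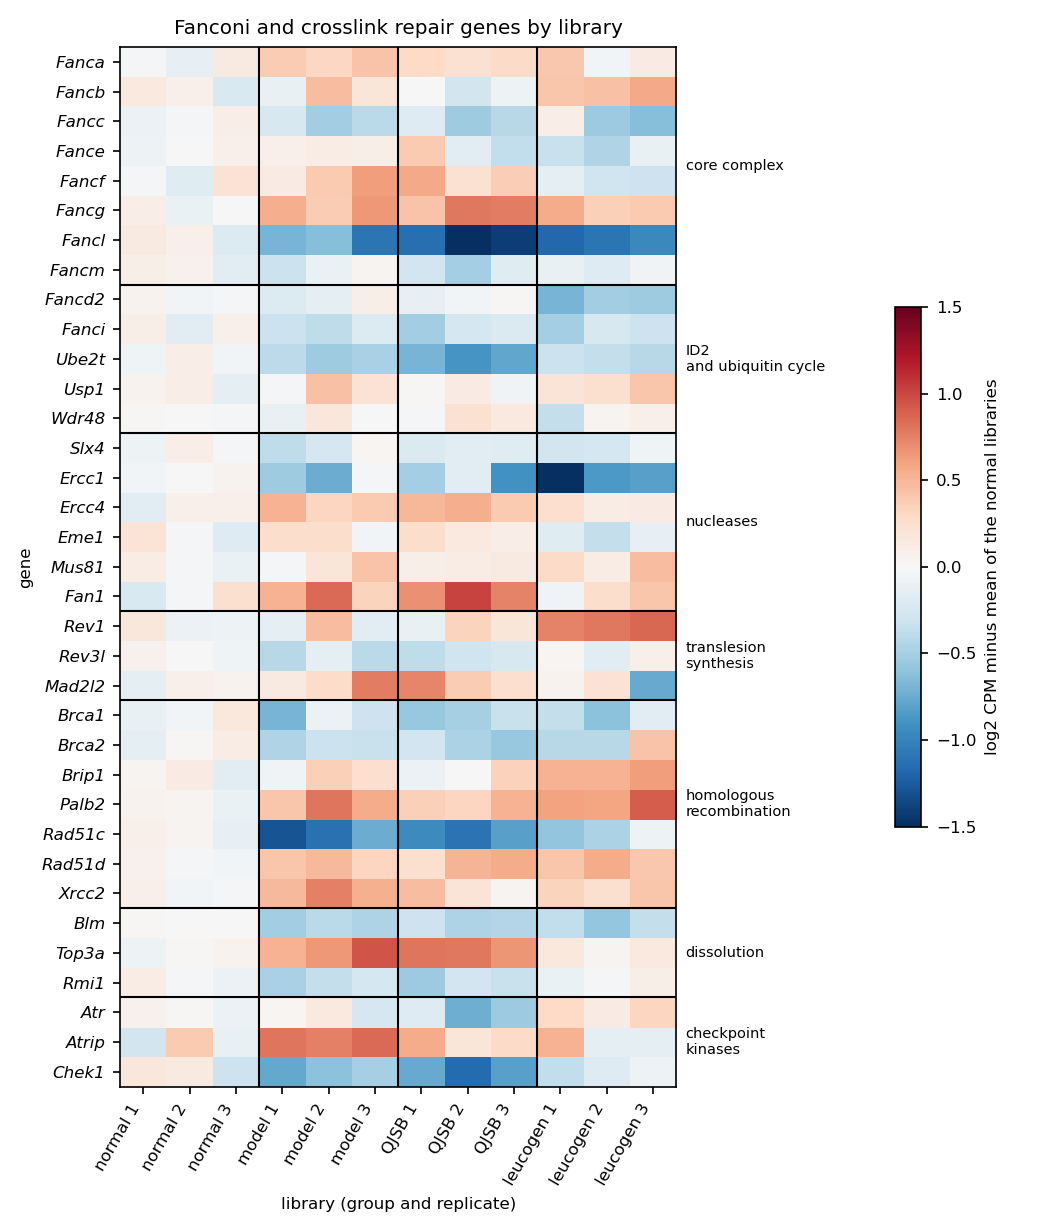
Log2 CPM of each gene (y axis, by role) in each library (x axis) minus the mean of the 3 normal libraries, with colours held at 1.5 in either direction. Fancl is blue in all 9 libraries from treated mice, whereas Top3a is red in model and QJSB and pale in leucogen libraries.

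In the core complex, Fancl stood out. This subunit is the ubiquitin ligase of the pathway (chromosome 11, 26386135 to 26471876, GRCm38). Its level was 41.1, 39.8 and 32.5 CPM in the normal libraries, 23.2, 24.2 and 17.5 CPM in model, 17.1, 11.3 and 14 CPM in QJSB and 16.6, 17.5 and 19.1 CPM in leucogen libraries. Each of the 9 libraries from treated mice lay below each normal library. Fancl fell by 0.80 ± 0.18 (SE) on the log2 scale in model against normal (adjusted p = 0.0071), by 1.40 ± 0.19 in QJSB against normal (adjusted p = 0.000887) and by 1.07 ± 0.13 in leucogen against normal (adjusted p = 6.92e-05), all by edgeR. These 3 comparisons share their normal libraries. The annotation places the end of Vrk2 on the opposite strand over 555 bases of Fancl, and Vrk2 had a log2 fold change of -0.71 in model against normal. In leucogen against model the 2 genes went opposite ways, Vrk2 by 0.37 and Fancl by -0.28. The part of Vrk2 reads in the Fancl counts was not tested. Whether the authors' counting used strand was not given in the sources used here.

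The core subunit Fanca did not follow Fancl. It was at 39.8, 37 and 44.3 CPM in normal, 52.4, 49.8 and 54.1 CPM in model, 49.7, 47.3 and 49 CPM in QJSB and 53.2, 39 and 43.8 CPM in leucogen libraries. Model lay wholly above normal, with a log2 fold change of 0.37 ± 0.13 (edgeR adjusted p = 0.0436), which is under the 1.5-fold limit. Fancg, which binds FANCA, had a log2 fold change of 0.53 ± 0.15 in model against normal (edgeR adjusted p = 0.0193), again under the limit, and rose by 0.69 ± 0.15 in QJSB against normal (edgeR adjusted p = 0.00774). The other 5 subunits, Fancb, Fancc, Fance, Fancf and Fancm, ranged from -0.38 to 0.41 in model against normal, and none passed the adjusted cutoff there. Fancm, the translocase that recognises the blocked fork, had a log2 fold change of -0.12 ± 0.14.

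Ube2t, the conjugating enzyme that works with FANCL, was lower in each treated group. Its levels were 18.6, 20.8 and 18.9 CPM in normal, 14.8, 13.3 and 13.8 CPM in model, 11.9, 10.4 and 11.2 CPM in QJSB and 15.5, 15.1 and 14.5 CPM in leucogen libraries. No treated library reached the lowest normal one. The log2 fold change was -0.47 ± 0.15 in model (adjusted p = 0.0331) and -0.35 ± 0.12 in leucogen (adjusted p = 0.0351), both inside 1.5-fold, and Ube2t fell by 0.78 ± 0.15 in QJSB against normal (adjusted p = 0.00389), all by edgeR. Fancd2 and Fanci encode the substrates of this step. Fancd2 was at 88.1, 82.4 and 83.9 CPM in normal, 73.3, 77.4 and 90.3 CPM in model, 77.9, 82.3 and 86.2 CPM in QJSB and 52.2, 58.9 and 58.4 CPM in leucogen libraries. Its normal, model and QJSB ranges overlapped, while all 3 leucogen libraries lay below the other 9. Fanci was at 67.7, 56.4 and 66.9 CPM in normal, 50.6, 48.7 and 55 CPM in model, 44, 53 and 54.7 CPM in QJSB and 44.5, 53.9 and 51.3 CPM in leucogen libraries. Every treated library was below the lowest normal one, with a log2 fold change of -0.30 ± 0.13 in model against normal (edgeR adjusted p = 0.0937), which did not pass.

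RNA of the genes for the step that removes ubiquitin stayed within 1.5-fold of normal in each treated group. Usp1 was at 213, 221 and 185 CPM in normal, 202, 279 and 239 CPM in model, 209, 224 and 198 CPM in QJSB and 235, 243 and 275 CPM in leucogen libraries. Model and QJSB overlapped normal, and leucogen lay above it by 0.30 ± 0.10 on the log2 scale (edgeR adjusted p = 0.0256), under the fold limit. Wdr48, the activator of USP1, had log2 fold changes of 0.03 in model, 0.13 in QJSB and -0.05 in leucogen against normal.

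**Figure D3:**
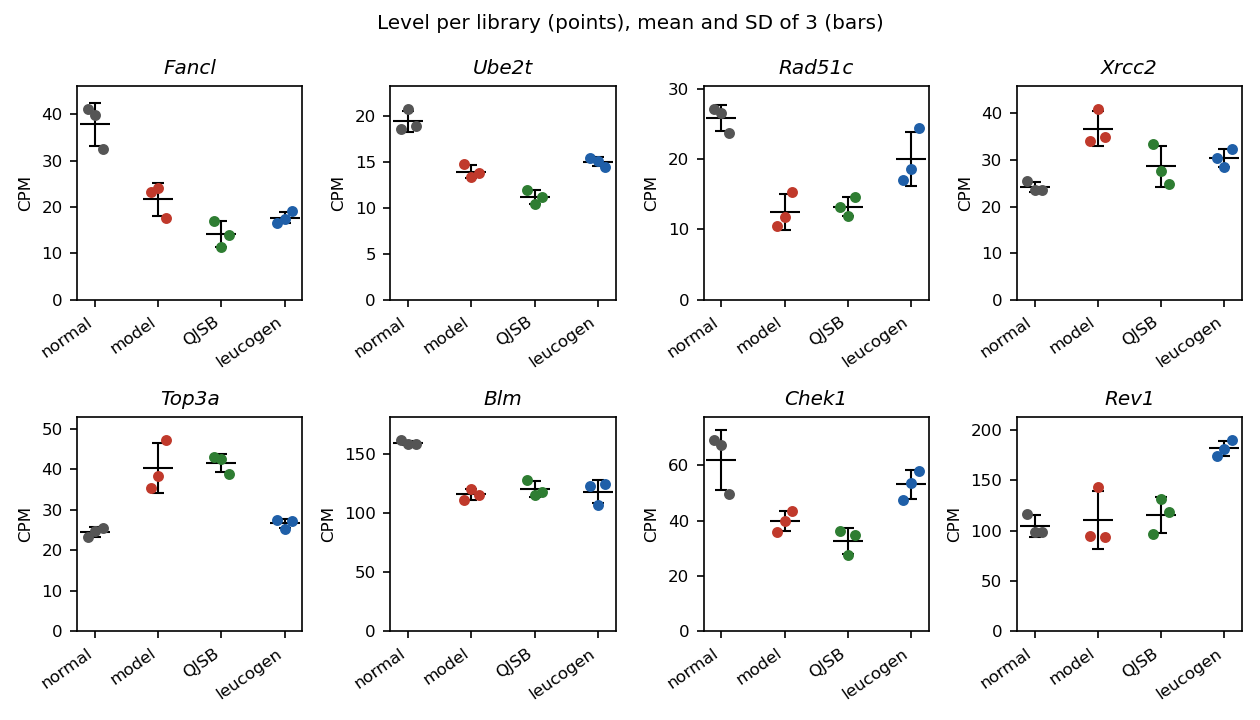
CPM (y axis, from 0) of 8 genes in the 4 groups (x axis), with a point for each library and bars for mean and SD of 3. Fancl and Ube2t lie below normal in every treated group, Top3a is high in model and QJSB libraries, and Rev1 is highest in leucogen at 174 to 190 CPM.

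None of the 6 nuclease genes passed the adjusted cutoff in model against normal. Slx4, the scaffold that holds the nucleases, was at 37.9, 42.8 and 39.7 CPM in normal, 30.6, 33.5 and 40.7 CPM in model, 34.6, 35.6 and 35.4 CPM in QJSB and 33, 33.5 and 38.4 CPM in leucogen libraries. The log2 fold changes against normal were -0.19, -0.18 and -0.18, and none passed the test. Ercc4, which with ERCC1 forms the XPF nuclease, was at 26, 30.7 and 30.5 CPM in normal, 41.7, 36.3 and 37.9 CPM in model, 41.1, 42.4 and 38 CPM in QJSB and 34.5, 31.4 and 31.5 CPM in leucogen libraries. All treated libraries lay above normal, with log2 fold changes of 0.42 ± 0.14 in model (adjusted p = 0.0381) and 0.49 ± 0.12 in QJSB (adjusted p = 0.0147) by edgeR, both under the fold limit. Its partner Ercc1 was measured by few reads, 49 to 55 counts per normal and 12 to 27 per leucogen library, and fell by 1.14 ± 0.31 in leucogen against normal (edgeR adjusted p = 0.0113). Fan1, a nuclease that can unhook crosslinks by itself, had a log2 fold change of 0.58 ± 0.21 in model against normal (edgeR adjusted p = 0.053) and rose by 0.83 ± 0.18 in QJSB against normal (edgeR adjusted p = 0.00851). Mus81 and Eme1, which form a nuclease together, had log2 fold changes of 0.22 and 0.16 in model against normal.

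Translesion synthesis held no gene past the adjusted cutoff in model against normal. Rev3l, the catalytic subunit of polymerase zeta, was at 264, 252 and 241 CPM in normal, 190, 230 and 191 CPM in model, 194, 205 and 213 CPM in QJSB and 258, 224 and 266 CPM in leucogen libraries. Model and QJSB lay wholly below normal, with log2 fold changes of -0.31 ± 0.12 (adjusted p = 0.0791) and -0.29 ± 0.10 (adjusted p = 0.0458) by edgeR, and leucogen overlapped normal. Mad2l2, its accessory subunit, had a log2 fold change of 0.43 ± 0.25 in model against normal (edgeR adjusted p = 0.203).

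Among the genes of homologous recombination Rad51c and Xrcc2 moved in opposite directions. Rad51c (chromosome 11, 87376645 to 87404954, GRCm38) was at 27.2, 26.6 and 23.7 CPM in normal, 10.4, 11.8 and 15.3 CPM in model, 13.3, 11.9 and 14.6 CPM in QJSB and 17.1, 18.6 and 24.4 CPM in leucogen libraries. Model and QJSB lay wholly below normal, and leucogen lay between them and normal with 1 library inside the normal range. Rad51c fell by 1.04 ± 0.18 in model against normal (adjusted p = 0.00254), which is 2.06-fold, and by 0.95 ± 0.15 in QJSB against normal (adjusted p = 0.00172), while leucogen differed from normal by -0.35 ± 0.15 (adjusted p = 0.0724), all by edgeR. Xrcc2 was at 25.5, 23.5 and 23.6 CPM in normal and 34, 41 and 35 CPM in model libraries, with no overlap, and rose by 0.60 ± 0.14 (edgeR adjusted p = 0.00905). Rad51d was higher by 0.41 ± 0.13 in model (edgeR adjusted p = 0.0359), under the fold limit.

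Palb2, which joins BRCA1 to BRCA2, rose by 0.60 ± 0.15 in model against normal (edgeR adjusted p = 0.0109). In leucogen against normal it rose by 0.73 ± 0.12 (edgeR adjusted p = 0.000484). Its levels were 32.4 to 36.1 CPM in normal, 46.3 to 60.4 CPM in model and 52.2 to 65.1 CPM in leucogen libraries. In QJSB libraries Palb2 was at 43.3 to 49.7 CPM, wholly above normal but not past the adjusted cutoff. Its partners did not rise. Brca1 was at 192, 202 and 231 CPM in normal, 128, 195 and 167 CPM in model, 140, 147 and 165 CPM in QJSB and 162, 135 and 184 CPM in leucogen libraries. Brca2, which acts in the repair of broken DNA, was at 109, 122 and 130 CPM in normal, 87.5, 96 and 95.3 CPM in model, 98.3, 86.5 and 81 CPM in QJSB and 90.2, 89.9 and 161 CPM in leucogen libraries. Brca1 in model overlapped normal (-0.35 ± 0.17, adjusted p = 0.133 by edgeR), and Brca2 in model lay wholly below it (-0.37 ± 0.12, adjusted p = 0.038 by edgeR), within 1.5-fold. In leucogen 3 Brca2 was above every other library and in the other 2 leucogen libraries below every normal one. Brip1, a helicase that binds BRCA1, had a log2 fold change of 0.20 ± 0.15 in model against normal.

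The 3 dissolution genes also split. BLM, TOP3A and RMI1 act as 1 complex that separates joined DNA molecules. Top3a, its topoisomerase (chromosome 11, 60740058 to 60777365, GRCm38), was at 23.2, 24.9 and 25.6 CPM in normal, 35.3, 38.5 and 47.2 CPM in model, 43.1, 42.6 and 39 CPM in QJSB and 27.5, 25.3 and 27.3 CPM in leucogen libraries. Model and QJSB lay wholly above both other groups. It rose by 0.72 ± 0.15 in model (adjusted p = 0.00577) and by 0.77 ± 0.12 in QJSB against normal (adjusted p = 0.00151), and leucogen differed from normal by 0.14 ± 0.11 (adjusted p = 0.314), all by edgeR. Blm, the helicase, was at 162, 159 and 159 CPM in normal, 111, 121 and 116 CPM in model, 128, 116 and 118 CPM in QJSB and 124, 107 and 125 CPM in leucogen libraries. Every treated library lay below every normal one, with log2 fold changes of -0.46 ± 0.11 in model (adjusted p = 0.00994), -0.39 ± 0.10 in QJSB (adjusted p = 0.0151) and -0.41 ± 0.09 in leucogen (adjusted p = 0.00367) by edgeR, all inside 1.5-fold. Rmi1 had a log2 fold change of -0.36 ± 0.13 in model against normal (edgeR adjusted p = 0.0515).

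Of the checkpoint genes, which halt the cell cycle at damaged forks, Chek1 fell and Atrip rose in model against normal, while Atr did not change detectably. Chek1, the effector kinase (chromosome 9, 36708482 to 36727065, GRCm38), was at 69, 67.5 and 49.5 CPM in normal, 36.1, 39.9 and 43.4 CPM in model, 36.2, 27.4 and 34.7 CPM in QJSB and 47.6, 53.6 and 58.1 CPM in leucogen libraries. Model and QJSB lay wholly below normal, and leucogen overlapped it. Chek1 fell by 0.64 ± 0.16 in model (adjusted p = 0.0151) and by 0.91 ± 0.18 in QJSB against normal (adjusted p = 0.00481) by edgeR. Its call in model was also lost without normal 1 (log2 fold change -0.55, adjusted p = 0.0697 by edgeR) or normal 2 (-0.57, adjusted p = 0.0664). Atr, the kinase that activates CHEK1, was at 160, 156 and 145 CPM in normal, 156, 169 and 129 CPM in model, 135, 92.1 and 105 CPM in QJSB and 189, 167 and 191 CPM in leucogen libraries. QJSB lay below normal and leucogen above it, with log2 fold changes of -0.46 ± 0.16 (adjusted p = 0.0449) and 0.27 ± 0.09 (adjusted p = 0.0294) by edgeR, both inside 1.5-fold. Atrip, which brings ATR to single-stranded DNA, was at 3.91, 6.31 and 4.41 CPM in normal, 8.42, 8.15 and 8.71 CPM in model, 7.08, 5.44 and 5.84 CPM in QJSB and 6.91, 4.35 and 4.32 CPM in leucogen libraries. It rose by 0.79 ± 0.23 in model against normal (edgeR adjusted p = 0.0253), and 14374 of the 14378 bases of its locus overlap another annotated gene, Gm42641, with 2.67 times its counts and a log2 fold change of 0.76, so that reads of the pair may have been divided between them. The Atrip call was lost without normal 1 (adjusted p = 0.102), normal 3 (adjusted p = 0.0876) or model 3 (adjusted p = 0.0502), those of Palb2 and Xrcc2 without model 2 (log2 fold changes 0.51 and 0.53), that of Palb2 without normal 3 (0.56) and that of Xrcc2 without normal 2 (0.58), in the same test.

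**Figure D4:**
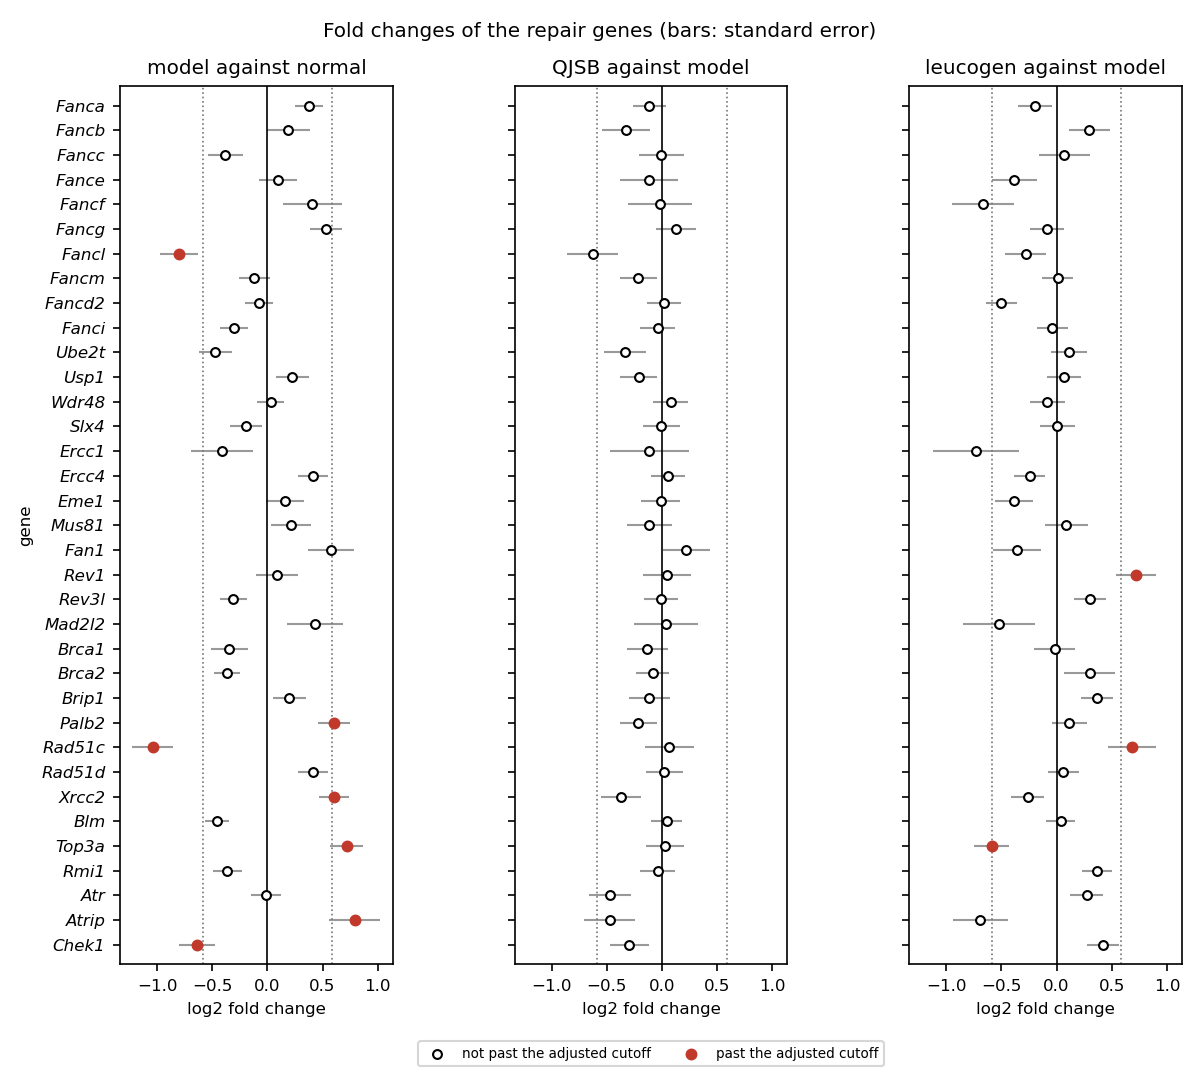
Log2 fold change of each gene (x axis, bars are SE) in 3 comparisons, with filled red points past the adjusted cutoff and dotted lines at 1.5-fold. Model against normal has 7 filled points, QJSB against model none, and leucogen against model 3.

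Related gene lists were read beside the members in model against normal. Of 19 other Fanconi and crosslink genes tested, none passed the adjusted cutoff in edgeR (1 passed the fold with an unadjusted p under 0.05), with a median log2 fold change of -0.05. Among 20 other homologous recombination genes 2 were higher and none lower, Swi5 by 0.63 and Rad51b by 0.61. End joining had 2 higher and 3 lower of 10, with the ligase Lig4 at -2.25 and the polymerase Polm at -1.80. Nucleotide excision repair had 2 higher and 1 lower of 18, with the damage sensor Xpc rising by 0.80 on the log2 scale. Base excision repair and direct reversal had 3 higher and 2 lower of 16, with the glycosylases Neil1 at -2.40 and Mpg at -1.13. Of 7 mismatch repair genes 1 was lower (Msh3, -0.67), and of 13 other checkpoint genes 1 was higher (the phosphatase Cdc25a, 0.68). DNA replication had 1 higher and 4 lower of 19 (Pcna, the sliding clamp, -0.90, and Pola1, -0.70), and mitosis 0 higher and 6 lower of 18 (Nusap1, -1.48, and Mki67, -1.29). Of 14 p53 targets tested, 3 were higher and 2 lower, with Btg2 at -2.90 and Eda2r at 2.13 ± 0.63 (SE). Eda2r was near the floor, at 0.21 to 0.72 CPM in normal and 0.87 to 3.17 CPM in model libraries, and was highest in model 1.

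QJSB against model asks what the granule added to cyclophosphamide. None of the 35 members passed the adjusted cutoff, and 0.0% of the 14486 genes tested did in edgeR, with a smallest adjusted p of 0.767. An unadjusted p under 0.05 was reached by 2 members and 4.99% of all genes in edgeR. DESeq2 called 0 members at the adjusted cutoff. With the same fold and an unadjusted p under 0.05 it called 1, Fancl (log2 fold change -0.62, DESeq2 unadjusted p = 0.02). The study's methods used the 1.5-fold limit with an unadjusted p under 0.05, and "at the unadjusted p" below means this rule, fold limit included. Under it 1 member passed (2.86%, against 3.08% of all genes). This was Fancl, whose levels are given above and whose QJSB libraries lay wholly below the model libraries, with a log2 fold change of -0.63 ± 0.23 (edgeR unadjusted p = 0.0237). Atr (-0.47 ± 0.19, unadjusted p = 0.038) and Atrip (-0.48 ± 0.23, unadjusted p = 0.0723) had the next smallest p in edgeR. The QJSB libraries lay wholly below the model libraries for 5 members, Fanca, Fancl, Ube2t, Xrcc2 and Atrip (14.3%, against 5.3% of all genes), and wholly above them for none (4.5% of all genes). Within 1.5-fold lay 34 of 35 members (97.1%) and 88.7% of all genes. Without QJSB 1, which stood apart, Fancl, Atr and Atrip passed at the unadjusted p (log2 fold changes -0.79, -0.63 and -0.59), and without model 1, model 2, QJSB 2 or QJSB 3 no member did.

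Against normal, the QJSB group had 3 members higher (Fan1, Fancg and Top3a) and 4 lower (Fancl, Rad51c, Chek1 and Ube2t) at the adjusted cutoff in edgeR, 20% of the members and 37.9% of all genes (18.0% higher and 19.9% lower). Without QJSB 1 it had 3 higher and 5 lower, the addition being Atr (-0.63). The 9 members that lay wholly above normal were 25.7% (28.1% of all genes) and the 15 that lay wholly below were 42.9% (29.9% of all genes).

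Leucogen against model asks what leucogen added. Rev1 and Rad51c rose and Top3a fell at the adjusted cutoff in edgeR, which is 3 of 35 members (8.57%, against 23.1% of 14184 genes, 11.6% higher and 11.5% lower). At the 1.5-fold limit with an unadjusted p under 0.05, Atrip and Fancf were also lower, which made 5 members (14.3%, against 29.6% of all genes). Rev1, the scaffold polymerase of translesion synthesis (chromosome 1, 38052786 to 38129801, GRCm38), was at 117, 98.5 and 98.6 CPM in normal, 94.7, 144 and 93.8 CPM in model, 96.2, 131 and 119 CPM in QJSB and 174, 181 and 190 CPM in leucogen libraries. All 3 leucogen libraries lay above the other 9. Rev1 rose by 0.72 ± 0.18 against model (adjusted p = 0.0205) and by 0.82 ± 0.09 against normal (adjusted p = 6.04e-05) by edgeR. Eif5b overlaps 2794 bases of Rev1 on the opposite strand and had a log2 fold change of -0.15 against model. Gm37062, inside Rev1 on the same strand with 0.05 times its counts, had one of 1.09. The part of their reads in the Rev1 counts was not tested. Rad51c rose by 0.68 ± 0.22 (adjusted p = 0.0453) and Top3a fell by 0.59 ± 0.16 (adjusted p = 0.024) against model by edgeR, without overlap of the groups. Fancd2 had a log2 fold change of -0.50 ± 0.14 (edgeR adjusted p = 0.0294), under the fold limit. Non-overlapping and higher were 5 members (14.3%; 22.2% of all genes), and non-overlapping and lower 9 (25.7%; 23.8% of all genes). Beside these members, 4 of 6 late neutrophil markers were called higher and 4 of 5 promyelocyte markers lower in leucogen against model, and their part in the result was not tested.

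None of the 3 calls against model held when each library was left out in turn. Rad51c lost its call without model 1, model 2 or any of the leucogen libraries (adjusted p from 0.0714 to 0.191), Rev1 without model 1, leucogen 1 or leucogen 3 (0.0573 to 0.0854), and Top3a without model 3 or any of the leucogen libraries (0.0734 to 0.0879), all by edgeR. When libraries were scaled by total counts, the median of all genes moved from -0.05 to -0.22, no member was called higher and 3 were called lower (Top3a, Fancd2 and Atrip), and among all genes the share of calls that were higher moved from 50.1% to 30.2%. Against normal the leucogen group had 2 members higher (Palb2 and Rev1) and 2 lower (Fancl and Ercc1), 11.4% of the members and 37.7% of all genes (17.8% higher and 19.8% lower). Members wholly above normal numbered 11 (31.4%; 29.5% of all genes) and those wholly below 8 (22.9%; 32.2% of all genes). Fancb, a core subunit on the X chromosome, and Brip1 were higher than normal by 0.50 ± 0.13 (adjusted p = 0.011) and 0.57 ± 0.10 (adjusted p = 0.000711), and Fancd2 differed from normal by -0.57 ± 0.09 (adjusted p = 0.000474), on the log2 scale by edgeR and all under the fold limit. Fancd2 passed that limit and the test in 8 of 14 alternatives and Brip1 in 3.

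The 2 drug groups were also compared with each other. At the adjusted cutoff in edgeR 5 members were higher in leucogen (Atr, Chek1, Rev1, Fancb and Rad51c) and 1 lower (Top3a), 17.1% of the members and 24.6% of 14266 genes (11.7% higher and 12.9% lower). At the 1.5-fold limit with an unadjusted p under 0.05 Fancf was also lower, which made 7 members (30.6% of all genes). The leucogen libraries lay wholly above the QJSB libraries for 11 members (31.4%; 23.2% of all genes), with Atr, Chek1, Rev1, Fancb and Rad51c among them, and wholly below for 7 (20%; 25.6% of all genes), with Top3a among them. Without QJSB 1 there were 4 higher and 2 lower. The number higher was 2 without QJSB 2 or leucogen 1, 3 without leucogen 2 and 0 without leucogen 3, and no member was lower without leucogen 2. Beside these members, 0 of 6 late neutrophil markers were called higher and 3 of 5 promyelocyte markers lower in leucogen against QJSB by edgeR, and 1 late neutrophil marker was higher at the unadjusted p. Their part was not tested.

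Finally, the members were set against genes that act in the same phase of the cell cycle. The mean log2 CPM of the 35 members was 5.12 ± 0.02 in normal, 5.13 ± 0.08 in model, 5.04 ± 0.03 in QJSB and 5.08 ± 0.06 in leucogen marrow (SD, n = 3). The 19 DNA replication genes had means of 7.02 ± 0.07, 6.87 ± 0.14, 6.87 ± 0.13 and 6.39 ± 0.08 in the same order. The difference, members minus replication, was -1.90 ± 0.04, -1.74 ± 0.17 and -1.83 ± 0.11 in the first 3 groups and -1.31 ± 0.12 in leucogen, whose 3 libraries (-1.28, -1.44 and -1.21) lay above the other 9. In leucogen against model 6 of 19 replication genes were called lower and none higher in edgeR, with a median log2 fold change of -0.51 against 0.01 for the members. Over all genes tested 11.5% were called lower and 11.6% higher, with a median of -0.05. The members thus lay near the median of all genes, and the difference was larger in leucogen because the replication list was lower.

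**Figure D5:**
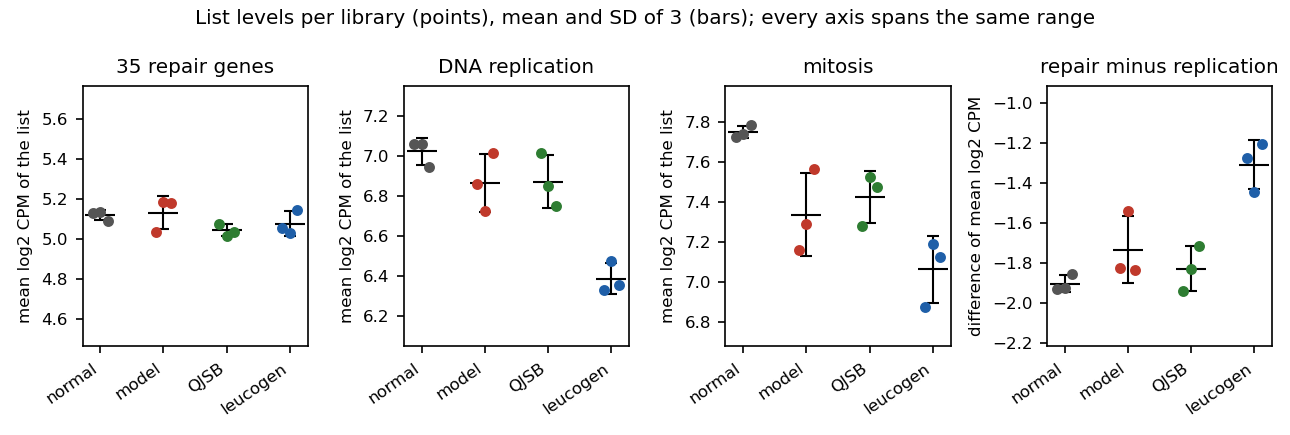
Mean log2 CPM (y axes, each spanning the same range) of the 35 repair genes, the DNA replication list, the mitosis list and the difference of the first 2, in the 4 groups (x axis), with points for libraries and bars for mean and SD of 3. The repair genes stay between 5.02 and 5.18, and the difference is highest in leucogen.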

How the data were processed

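RNA from the femoral marrow of 12 mice was sequenced after ribosomal RNA removal with a strand-specific kit. Per the labels and methods, the authors mapped reads with HISAT2 to mm10 and deposited gene counts and FPKM in a single table; the counting tool was not given in the sources used here. The deposited counts were tested here with edgeR 4.0.16 (TMM, filterByExpr, robust quasi-likelihood fit, R 4.3.3), a pair of groups at a time, with Benjamini-Hochberg adjustment over all genes tested. CPM values are TMM-scaled over the 12 libraries, log2 CPM used a prior count of 2, and the SE was taken from the fold change and its F statistic. The deposited FPKM were used to compare levels between genes and, as log2(FPKM + 0.1), in limma 3.58.1. DESeq2 1.42.0 and other scalings, filters and left-out libraries were alternatives. Scripts were tested on simulated data.

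The members and lists were chosen with earlier results of these data known. Every member is named. Values in every library are given for 14 central members, for the 5 members with the largest change past the adjusted cutoff in model and in leucogen comparisons and for the 3 with the smallest p in QJSB against model. Of other lists the 2 genes with the largest change past the cutoff are named, except for 1 that is not reported here. Palb2, Xrcc2, Fan1, Fancg, Ercc1, Rad51d, Brip1, Fancb and Rmi1 are described beyond that rule and were chosen after their values were seen. Fold changes of Fancm, Wdr48, Mus81, Eme1 and Mad2l2 are also given beyond that rule.

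Of the column headings, Blank was taken as normal, Positive as leucogen, and Stilbene, the only one left beside Model, as QJSB. Of the 35 members 16 overlap another annotated gene. Replicate libraries differed by more than sampling noise (chi-square per degree of freedom from 10.2 to 99.6). Deviations of same-numbered model and QJSB libraries from their group means had correlations of 0.426, 0.123 and 0.107 over 15310 genes. However, QJSB 2 with model 3 (0.159) and QJSB 3 with model 2 (0.165) correlated more than 2 of the same-numbered pairs. No label gives a pairing, so the main tests were unpaired, and a block on the replicate number was tried only as an alternative. In the other comparisons at least 1 same-numbered pair was under 0.1.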

Additional observations from a re-analysis of the deposited data

Results flagged for a closer look

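Leucogen and QJSB mice received the same cyclophosphamide, and 6 members differed between these groups by the edgeR test of the difference itself. The log2 differences, leucogen minus QJSB, were 0.74 for Atr, 0.72 for Chek1, 0.67 for Rev1, 0.62 for Fancb, 0.61 for Rad51c and -0.62 for Top3a. These are 17.1% of the members, and 24.6% of all genes differed by the same rule. For each of the 6 the leucogen and QJSB libraries did not overlap. Of 14 alternatives, the call was lost in 8 for Rad51c, 6 for Fancb, 3 for Atr, 2 each for Chek1 and Rev1 and 1 for Top3a. Without leucogen 3, 0 members were called higher. Late neutrophil sums were 11691 to 15237 CPM in leucogen and 2728 to 15081 CPM in QJSB libraries, and promyelocyte sums 3449 to 4562 CPM and 8127 to 8966 CPM; their part in these differences was not tested. All 6 rest on the reading of the column headings given above.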

How the results depend on the processing

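No member reversed its call in any alternative. The calls of Fancl in all 3 comparisons with normal, of Rad51c and Top3a in model and QJSB against normal, of Palb2 and Rev1 in leucogen against normal and of Chek1, Fan1, Fancg and Ube2t in QJSB against normal held in each of the 14 alternatives tried, as did that of Ercc1 in leucogen against normal. In model against normal the number of members called higher, 4, became 2 with at least 10 counts in every library, 6 with total counts (Fancg and Fan1 added), 5 with limma on FPKM (Fancg added) and 2 to 4 when single libraries were left out, with Fancg added without model 2 and Fan1 without model 3. In QJSB against model the members at the unadjusted p, which here and below includes the 1.5-fold limit, numbered 0 to 3 when single libraries were left out. In leucogen against model the members called lower, 1, became 0 with DESeq2, 0 with DESeq2 size factors, 3 with total counts, 3 with limma on FPKM and 0 to 1 with libraries left out; those called higher, 2, became 0 with total counts, 1 with no filter, 0 with limma and 0 to 2 with libraries left out; and those at the unadjusted p, 5, became 3 with DESeq2 and 2 to 4 with libraries left out. In leucogen against QJSB the members called lower, 1, became 3 with total counts, 2 with all 12 libraries in a single model, 2 with limma and 0 to 2 with libraries left out; those called higher, 5, became 3 with total counts, 2 with limma and 0 to 5 with libraries left out; and those at the unadjusted p, 7, became 4 to 8. Scaling by total counts moved the median of all genes from 0.02 to 0.14 in model against normal, and the share of calls that were higher from 45.8% to 56.3%; Chek1 then differed by -0.52 and with limma on FPKM by -0.50, both inside 1.5-fold. Over all genes the count in QJSB against model at the unadjusted p was 446 and ran from 149 without QJSB 2 to 1716 without QJSB 1, with 802 in a single model of all libraries and 668 with DESeq2, which called 8 at the adjusted p against 0. In leucogen against model 3276 genes became 1239 without leucogen 3, and in leucogen against QJSB 3511 became 1544. Beyond the effects of fewer libraries or another scaling, the cause was not tested.

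With the replicate block, QJSB against model had 18 genes at the adjusted cutoff in place of 0 and 830 in place of 446 at the unadjusted p, but 0 and 1 members as without it. In leucogen against model the block left 0 members lower and 3 at the unadjusted p, and in leucogen against QJSB 2 lower. Members of low level, such as Ercc1 at 12 to 27 counts in leucogen libraries, are limited by depth, and 3 libraries per group limit every test.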
